A study of Mus musculus with 6 samples.

Results

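The genes described here encode the nuclear subunits of the 5 oxidative phosphorylation complexes, read in bulk liver RNA-seq of mice with 1 floxed allele of the transcription factor gene Cebpb. Members were taken by symbol: those beginning with Nduf and then a, b, c, s or v for complex I, with the Ndufaf assembly factors left out, Sdha to Sdhd for complex II, Uqcr for complex III, Cox4 to Cox8 for complex IV and Atp5 for complex V. The count table held 88 such symbols of 17119, of which 43 belonged to complex I, 4 to complex II, 8 to complex III, 16 to complex IV and 17 to complex V. No mitochondrially encoded subunit was among the rows, so the proteins made inside the organelle were not analysed here. The livers came from Clec4f-iCre;Cebpb fl/+ mice (called heterozygous here, libraries Hete 1 to 3) and from their Clec4f-iCre;Cebpb+/+ littermates (called wild-type here, libraries WT 1 to 3), with 3 libraries in each group. Both groups carried the Cre, which is driven by Clec4f, a gene of the Kupffer cells (resident liver macrophages), and both ate for 12 weeks a diet rich in fat and cholesterol (HFHCD). Labels of replicates 2 and 3 in both groups spell the Cre with other, consecutively numbered Clec symbols, while the series design gives Clec4f for all. The labels give no age and do not say whether each library is 1 mouse, so any p-value given here rests on library-to-library spread, which may be technical.

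Oxidative phosphorylation passes electrons from NADH through complex I, or from succinate through complex II, to coenzyme Q, then through complex III and cytochrome c to oxygen at complex IV. Complexes I, III and IV pump protons across the inner mitochondrial membrane, and complex V, the ATP synthase, uses their return to make ATP. Hepatocytes are rich in mitochondria and use the pathway to burn fatty acids, and most of its subunits are encoded in the nucleus, where many of their promoters are known to be bound by nuclear respiratory factor 1 (NRF1) and by the ETS family factor GABP.

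A RefSeq table of promoters for the build GRCm38.p6, with windows from 250 bases before to 50 bases after a gene's start, matched 70 of the 88 members by symbol and gave 75 windows of 300 bases for them. The NRF1 motif GCGCANGCG, searched on both strands, was in 28% of the members' windows and in 6.24% of the 32817 windows of the whole table. The ETS motif CCGGAAG was in 22.7% of the members' windows and in 8.86% of all windows. The YY1 motif AAGATGGC was in 13.3% against 2.74%, the estrogen-related receptor motif TCAAGGTCA in 2.67% against 0.424%, and the C/EBP motif TTGCNNAA, of the family that Cebpb belongs to, in 12% against 10.8%. The median GC content was 57.7% over the members' windows and 52.7% over all windows, and the part of base composition in these shares was not tested. An NRF1 or ETS match was found for 31 members and both for 6, from complexes II, III, IV and V. These 6 are shown because they carry both an NRF1 and an ETS match. They are followed by Ndufa12 of complex I, which had no match to any of the 5 motifs. Its level stood apart between libraries, as described further on. Capitals mark NRF1 and ETS matches, with adjoining or overlapping matches run together (the NRF1 motif can match both strands at 1 place), and CTTCCGG is the ETS motif on the other strand. The windows, 5′ to 3′ on the gene's strand, were Sdhd at chr9:50603800-50604099 (minus strand), Uqcr11 at chr10:80406772-80407071 (minus strand), Cox6a1 at chr5:115348909-115349208 (minus strand), Atp5h at chr11:115419870-115420169 (minus strand), Atp5k at chr5:108434350-108434649 (minus strand), Atp5l at chr9:44920693-44920992 (minus strand) and Ndufa12 at chr10:94198785-94199084 (plus strand).
Sdhd: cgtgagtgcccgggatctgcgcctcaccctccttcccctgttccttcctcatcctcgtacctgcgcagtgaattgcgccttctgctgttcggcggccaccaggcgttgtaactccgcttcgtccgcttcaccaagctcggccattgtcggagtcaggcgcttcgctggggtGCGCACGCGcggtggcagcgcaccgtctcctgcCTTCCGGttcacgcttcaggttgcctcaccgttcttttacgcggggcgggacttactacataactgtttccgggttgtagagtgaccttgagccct
Uqcr11: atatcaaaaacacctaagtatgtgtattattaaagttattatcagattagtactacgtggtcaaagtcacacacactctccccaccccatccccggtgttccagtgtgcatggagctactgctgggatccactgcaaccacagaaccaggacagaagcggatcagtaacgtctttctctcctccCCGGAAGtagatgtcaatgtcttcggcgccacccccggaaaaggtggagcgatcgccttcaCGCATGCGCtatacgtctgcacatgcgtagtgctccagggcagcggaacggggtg
Cox6a1: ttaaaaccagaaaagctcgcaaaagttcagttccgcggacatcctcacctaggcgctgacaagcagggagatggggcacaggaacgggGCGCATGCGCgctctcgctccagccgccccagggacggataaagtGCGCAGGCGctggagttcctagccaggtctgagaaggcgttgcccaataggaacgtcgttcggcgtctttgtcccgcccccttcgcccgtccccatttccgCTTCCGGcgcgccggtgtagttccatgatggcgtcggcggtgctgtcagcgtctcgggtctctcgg
Atp5h: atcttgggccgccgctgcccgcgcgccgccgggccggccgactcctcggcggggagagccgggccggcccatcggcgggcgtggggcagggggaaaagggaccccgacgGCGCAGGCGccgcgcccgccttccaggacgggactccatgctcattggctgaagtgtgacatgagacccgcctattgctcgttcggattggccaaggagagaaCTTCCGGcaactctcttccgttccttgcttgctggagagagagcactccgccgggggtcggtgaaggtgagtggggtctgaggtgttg
Atp5k: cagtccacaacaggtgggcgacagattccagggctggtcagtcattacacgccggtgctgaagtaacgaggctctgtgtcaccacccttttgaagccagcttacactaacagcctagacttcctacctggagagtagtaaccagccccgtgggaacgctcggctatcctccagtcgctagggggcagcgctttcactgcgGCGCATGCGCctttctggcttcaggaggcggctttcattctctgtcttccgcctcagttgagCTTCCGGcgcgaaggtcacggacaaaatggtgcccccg
Atp5l: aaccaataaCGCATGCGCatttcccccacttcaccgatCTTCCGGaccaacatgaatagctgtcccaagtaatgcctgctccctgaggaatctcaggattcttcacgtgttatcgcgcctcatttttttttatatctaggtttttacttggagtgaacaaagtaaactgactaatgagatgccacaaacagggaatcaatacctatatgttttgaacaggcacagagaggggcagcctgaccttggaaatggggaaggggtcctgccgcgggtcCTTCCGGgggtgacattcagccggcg
Ndufa12: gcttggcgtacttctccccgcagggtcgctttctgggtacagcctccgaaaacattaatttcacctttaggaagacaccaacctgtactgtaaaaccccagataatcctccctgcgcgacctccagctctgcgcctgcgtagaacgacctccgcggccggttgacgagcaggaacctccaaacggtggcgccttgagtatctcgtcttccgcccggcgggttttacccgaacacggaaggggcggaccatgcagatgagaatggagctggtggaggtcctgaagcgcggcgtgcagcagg
A match is a run of letters and not a site shown to be bound.

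Libraries held between 16895322 and 17750755 counts, and member genes took between 1.15% and 1.402% of them. The median tested member had between 1643 and 2311 counts in a library. Levels are given as CPM, a gene's counts relative to the scaled library total, with TMM factors for the scaling. Cebpb itself was at 204, 498 and 269 CPM in heterozygous livers, against 506, 308 and 340 CPM in wild-type livers, with overlapping groups (edgeR quasi-likelihood test, adjusted p = 0.864). The Cre is meant to act in Kupffer cells, and whole liver RNA does not separate their Cebpb from that of other cells. Clec4f was at 4.31, 4.97 and 3.90 CPM in heterozygous livers, against 48.6, 38.5 and 5.42 CPM in wild-type livers, so WT 3 sat near the heterozygous libraries (same test, adjusted p = 0.260). The 10 hepatocyte markers, albumin among them, summed to between 117175 and 133683 CPM in heterozygous livers and between 105387 and 135992 CPM in wild-type livers, as a liver label requires.

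Per length of transcript, the subunit genes were among the most abundant messages of these livers. Lengths were found for 83 members and are those of 1 principal transcript a gene in GENCODE M21. Of the 79 tested members with a length, 70 lay above 90% of all tested genes in CPM per kilobase. Uqcrq, a small subunit of complex III, was highest at 902 CPM per kilobase over the 6 libraries. It was followed by Cox4i1, a regulatory subunit of complex IV, at 624 CPM per kilobase and by Atp5b, the catalytic beta subunit of the ATP synthase, at 589 CPM per kilobase. Over tested members with a length, the median level was 94.3 CPM per kilobase in complex I, 154 in complex II, 215 in complex III, 224 in complex IV and 197 in complex V. Within complex II the catalytic subunit Sdha, the iron-sulfur subunit Sdhb and the membrane anchor Sdhd lay close together at 168, 150 and 158 CPM per kilobase, and the other anchor, Sdhc, was at 59.98 CPM per kilobase. These levels depend on the transcript chosen for each gene.

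**Figure D1:**
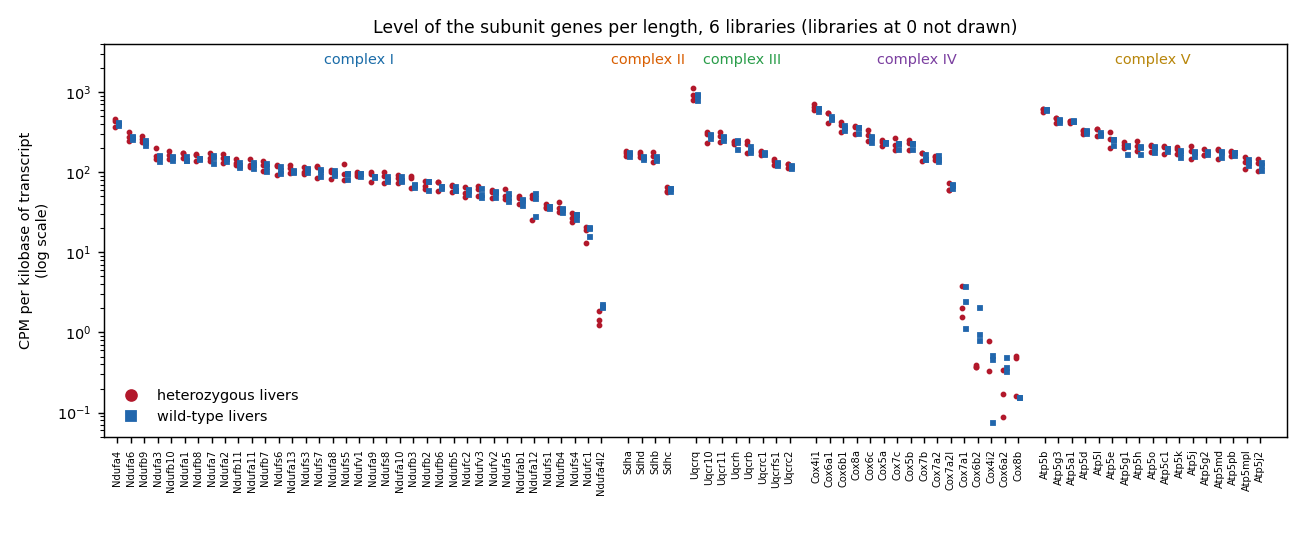
CPM per kilobase of transcript (log scale) for 82 of the 83 subunit genes with a length, by complex and ordered by level, with circles for the 3 heterozygous livers and squares for the 3 wild-type livers. Circles and squares overlap for nearly every abundant gene, and a small group of complex I and IV genes sits under 10 CPM per kilobase.

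The low group consisted of genes known in mouse as forms used in other tissues or states. Ndufa4l2, a paralogue of Ndufa4 known to be induced in hypoxia, was at 1.80 CPM per kilobase, and Cox7a1, the form of subunit 7a used in heart and skeletal muscle, at 2.44 CPM per kilobase. Within a library Ndufa4l2 reached at most 0.595% of Ndufa4 per length and Cox7a1 at most 2.44% of the liver form Cox7a2. Cox4i2, Cox6a2, Cox6b2 and Cox8b had too few counts to be tested, as had the Ndufb4 copy Ndufb4c, so 83 of the 88 members were tested. Cox6b2, a form known from testis, had 9 counts over the 3 heterozygous libraries and 31 over the 3 wild-type libraries. The muscle form Cox6a2 had 7 counts in heterozygous and 14 in wild-type libraries, and Cox8b, a muscle and brown fat form, had 7 in heterozygous and 2 in wild-type libraries. The lung form Cox4i2 had 14 counts in heterozygous and 13 in wild-type libraries, and Ndufb4c had 17 in heterozygous and 9 in wild-type libraries. Markers of striated muscle were themselves near 0, with Mb, the muscle oxygen store, at 0 counts in all 6 libraries. Cidea, listed with them as a brown fat gene, varied between libraries, and the cells it came from were not tested. It was at 29.7, 0.303 and 4.93 CPM in heterozygous livers, against 0.61, 20.7 and 8.76 CPM in wild-type livers. The 3 genes for the ATP synthase c subunit, whose mature proteins are known to be identical, were all abundant: Atp5g3 was at 439 CPM per kilobase, Atp5g1 at 39.9% to 50.1% and Atp5g2 at 35.4% to 41.3% of it within a library. The ratio of Atp5g1 to Atp5g3, as log2 of CPM, was -1.30 ± 0.06 in heterozygous livers and -1.41 ± 0.15 in wild-type livers (SD, n = 3 each).

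No subunit gene passed the test between heterozygous and wild-type livers in any complex. With edgeR's quasi-likelihood test and an adjusted p of 0.05, 0 of 83 members were lower and 0 were higher, where 0.559% of the 12706 tested genes were lower and 0.0236% were higher. At an unadjusted p of 0.05 the counts were again 0 and 0, beside 9% of all tested genes lower and 4.2% higher. Nearly all fold changes were small and positive: 73 of 83 were above 0, against 51% of all tested genes, and the median log2 fold change of heterozygous over wild-type was 0.087 over the members and 0.005 over all tested genes. The smallest adjusted p of any member was 0.454, for Ndufa1. Ndufa4l2 was the only tested member whose groups did not overlap, lower in heterozygous livers, and 0 members did so in the higher direction, where 11.3% of all tested genes were separated with heterozygous lower and 7.05% with heterozygous higher.

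The members' small median moved with single libraries. It was 0.017 without Hete 3, 0.187 without Hete 2, 0.046 without WT 2 and 0.13 without WT 1, and 49, 80, 64 and 82 of the 83 members were then above 0. Without Hete 3 and WT 2 together, a pair chosen after the values were seen, it was -0.034 with 28 members above 0.

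Most subunits had narrow intervals in these libraries. Each interval rests on the spread of 3 libraries a group. Members moved together between libraries, as described further on, so their intervals are not independent of each other. The 95% interval of the fold change lay within 1.5-fold in both directions for 77 of 83 members, and did so for 50.9% of all tested genes. The median standard error was 0.13 on the log2 scale over the members and 0.17 over all tested genes. These comparisons were not matched for level. By library, the mean log2 CPM was between 6.35 and 6.69 over the tested members and between 3.87 and 3.97 over all tested genes. The 6 members with wider intervals were the weakly expressed Ndufb4b, Ndufs6b, Ndufab1-ps, Ndufa4l2 and Cox7a1, and Ndufa12. The first 3 are copies of Ndufb4, Ndufs6 and Ndufab1, and reads shared with those genes make their counts uncertain.

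**Figure D2:**
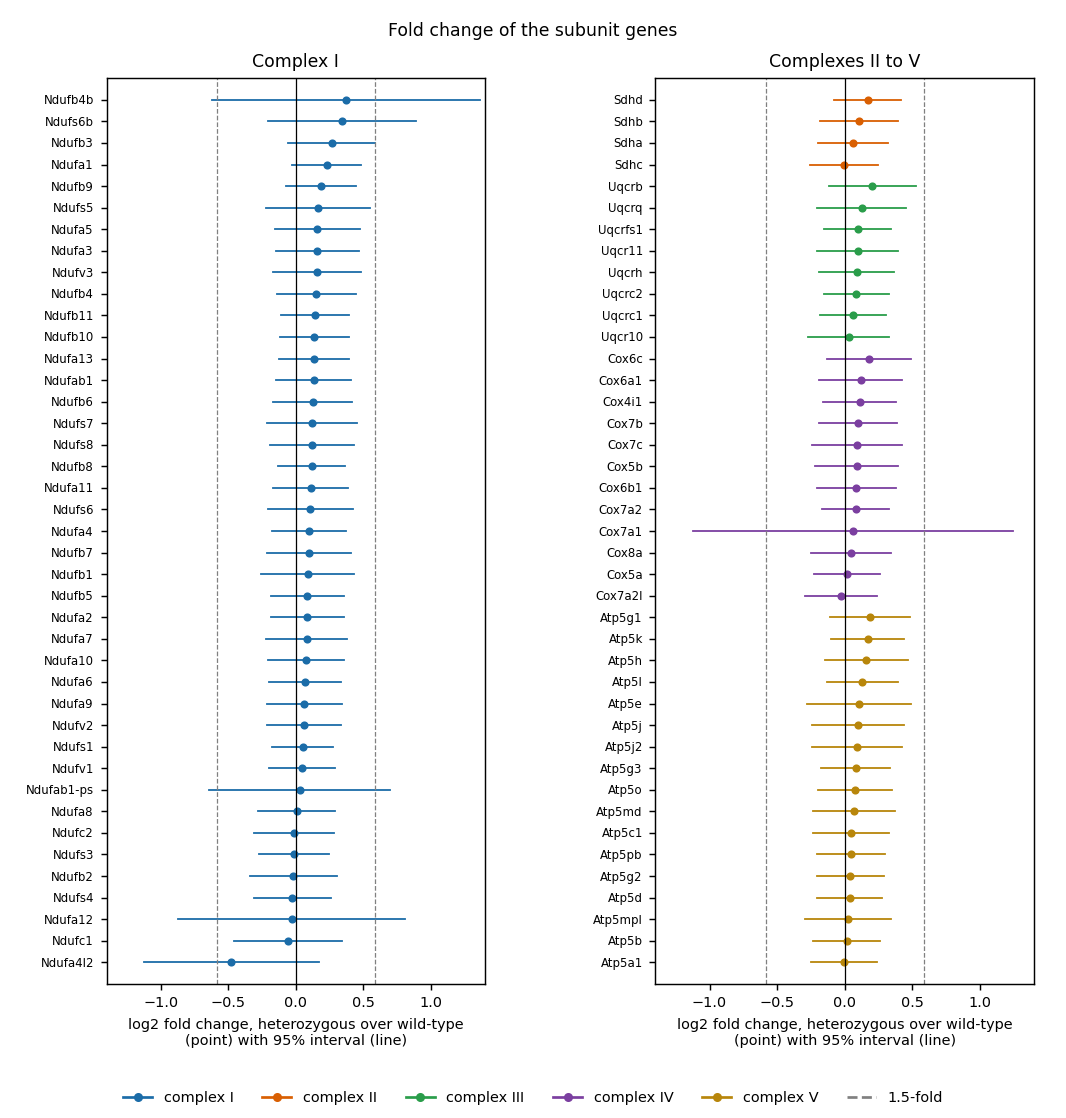
Log2 fold change of heterozygous over wild-type livers (points) with 95% intervals (lines) for 82 of the 83 tested subunit genes, complex I on the left and complexes II to V on the right, with dashed lines at 1.5-fold in each direction. Every interval drawn covers 0, 76 lie inside the dashed lines, and 72 points lie right of 0.

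Complex I, the NADH dehydrogenase, had a median log2 fold change of 0.098, with 35 of its 42 tested genes above 0. Its summed level was 3605, 3109 and 3893 CPM in heterozygous livers, against 3373, 3084 and 3458 CPM in wild-type livers. The highest sum was in Hete 3 and the lowest in WT 2, with Hete 2 beside it, and the groups overlapped. Among the core subunits, Ndufv1, which holds the NADH site, was at 157, 149 and 169 CPM in heterozygous livers, against 159, 142 and 158 CPM in wild-type livers (log2 fold change 0.047 ± 0.11, SE). Ndufs1, which carries iron-sulfur clusters, had a log2 fold change of 0.05 ± 0.099. Both were named for their roles.

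The smallest p-values of complex I belonged to accessory subunits. Ndufa1, a small membrane subunit needed for assembly, was at 72.3, 62.3 and 73.6 CPM in heterozygous livers, against 63.9, 57.1 and 57.0 CPM in wild-type livers. Hete 2 was below WT 1, so the groups overlapped, and the log2 fold change was 0.23 ± 0.11 (SE, adjusted p = 0.454). Ndufb3, another membrane subunit, was at 68.1, 48.3 and 65.4 CPM in heterozygous livers, against 47.9, 50.8 and 52.6 CPM in wild-type livers. Hete 1 and Hete 3 lay above every wild-type library and Hete 2 among them (log2 fold change 0.26 ± 0.14, adjusted p = 0.496). Ndufb9, which sits in the membrane arm, was at 184, 167 and 200 CPM in heterozygous livers, against 162, 150 and 172 CPM in wild-type livers (log2 fold change 0.19 ± 0.12, adjusted p = 0.565). Ndufa4l2 was at 1.34, 1.15 and 1.72 CPM in heterozygous livers, against 1.89, 2.07 and 1.92 CPM in wild-type livers, which are 19 to 38 counts a library. Its log2 fold change was -0.48 ± 0.29 (adjusted p = 0.552), and its log2 ratio to Ndufa4 was -7.54 ± 0.16 in heterozygous livers and -6.94 ± 0.15 in wild-type livers (SD, n = 3 each). Ndufa4, grouped here by its symbol though its protein is known to sit in complex IV, was the complex I gene with the highest CPM, at 269, 225 and 281 CPM in heterozygous livers, against 252, 227 and 245 CPM in wild-type livers.

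Complex II, succinate dehydrogenase, also belongs to the TCA cycle and has no mitochondrially encoded subunit. Its summed level was 1104, 1055 and 1055 CPM in heterozygous livers, against 1001, 1003 and 1043 CPM in wild-type livers. It was the complex whose sums did not overlap, with a ratio of means of 1.05, and no p is given for a sum over members. The same ratio was 1.07 in complex I, 1.07 in complex III, 1.06 in complex IV and 1.03 in complex V. The median log2 fold change of complex II was 0.084, with 3 of 4 genes above 0, and the groups overlapped for each of the 4. Sdhd was at 210, 217 and 189 CPM in heterozygous livers, against 185, 172 and 191 CPM in wild-type livers. Hete 3 was below WT 3, and the log2 fold change was 0.17 ± 0.11 (SE, adjusted p = 0.595). Sdha was at 529, 508 and 460 CPM in heterozygous livers, against 446, 499 and 489 CPM in wild-type livers (log2 fold change 0.062 ± 0.11). Sdhb and Sdhc had log2 fold changes of 0.11 ± 0.13 and -0.0037 ± 0.11, and that of Sdhc turned positive with other library scaling.

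Complex III, the cytochrome bc1 complex, had a median log2 fold change of 0.091, with 8 of 8 genes above 0, and summed to 1576 ± 168 CPM in heterozygous livers and 1473 ± 88.1 CPM in wild-type livers (SD, n = 3 each). Uqcrb, which helps bind coenzyme Q, was at 120, 93.9 and 131 CPM in heterozygous livers, against 97.2, 92.5 and 110 CPM in wild-type livers. Hete 2 lay within the wild-type range, and the log2 fold change was 0.20 ± 0.14 (SE, adjusted p = 0.628). Uqcrq was at 375, 320 and 449 CPM in heterozygous livers, against 358, 317 and 373 CPM in wild-type livers, the highest value again in Hete 3 (log2 fold change 0.13 ± 0.15). The Rieske iron-sulfur protein Uqcrfs1 and the core protein Uqcrc2 had log2 fold changes of 0.096 ± 0.11 and 0.087 ± 0.11.

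Complex IV, cytochrome c oxidase, had a median log2 fold change of 0.087, with 11 of 12 tested genes above 0, and summed to 2133 ± 242 CPM in heterozygous livers and 2004 ± 121 CPM in wild-type livers (SD, n = 3 each). Cox6c was at 144, 124 and 169 CPM in heterozygous livers, against 133, 115 and 137 CPM in wild-type livers (log2 fold change 0.18 ± 0.14, SE, adjusted p = 0.681). Cox4i1, the most abundant, was at 477, 439 and 530 CPM in heterozygous livers, against 463, 416 and 462 CPM in wild-type livers (log2 fold change 0.11 ± 0.12). Hete 3 was the highest library for both genes, and WT 2 the lowest. Cox6a1 and Cox7b had log2 fold changes of 0.12 ± 0.14 and 0.098 ± 0.13. Cox7a2l, which is known to link complexes III and IV into supercomplexes, was the 1 gene of this complex below 0, at 63.8, 78.9 and 65.2 CPM in heterozygous livers, against 71.5, 66.6 and 73.7 CPM in wild-type livers. It was named for that sign after its values were seen.

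Complex V had the smallest median log2 fold change, 0.074, with 16 of 17 genes above 0. It summed to 4559 ± 208 CPM in heterozygous livers and 4418 ± 143 CPM in wild-type livers (SD, n = 3 each). Atp5b was at 1175, 1161 and 1071 CPM in heterozygous livers, against 1115, 1126 and 1128 CPM in wild-type livers (log2 fold change 0.016 ± 0.11, SE). The alpha subunit Atp5a1 had a log2 fold change of -0.0064 ± 0.11, which was just above 0 with RLE scaling. Atp5k, a membrane subunit of the ATP synthase dimer, was at 72.7, 63.2 and 75.5 CPM in heterozygous livers, against 64.8, 56.0 and 67.2 CPM in wild-type livers. Hete 2 lay within the wild-type range, and the log2 fold change was 0.17 ± 0.12 (adjusted p = 0.634). Atp5g1 had a log2 fold change of 0.19 ± 0.13 (adjusted p = 0.637), Atp5h, of the peripheral stalk, of 0.16 ± 0.14, and Atp5l, another membrane subunit, of 0.13 ± 0.12.

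The subunit genes varied together between libraries of the same genotype. The libraries compared in the next sentences were chosen after the values were seen, so no test is given. Hete 3 was the highest of the 6 libraries for 64 of the 83 members, and for 15.8% of all tested genes. The lowest library was Hete 2 for 36 members and WT 2 for 38, against 17.2% and 14.9% of all tested genes. Hete 3 exceeded Hete 2 in 77 of 83 members, by a median of 0.35 on the log2 scale, and WT 3 exceeded WT 2 in 75, by a median of 0.18, where all tested genes had shares of 50.04% and 48.9% and medians of 0.00 and -0.01. The median log2 range over the 3 libraries of a genotype was 0.35 in heterozygous livers and 0.19 in wild-type livers for the members, and 0.36 in heterozygous livers and 0.37 in wild-type livers for all tested genes. In complex I 41 of 42 tested genes were higher in Hete 3 than in Hete 2, in complex III 8 of 8, in complex IV 11 of 12 and in complex V 15 of 17, and in complex II 2 of 4. Exceptions included Sdha, Sdhd, Cox7a2l, Atp5b and Atp5a1.

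**Figure D3:**
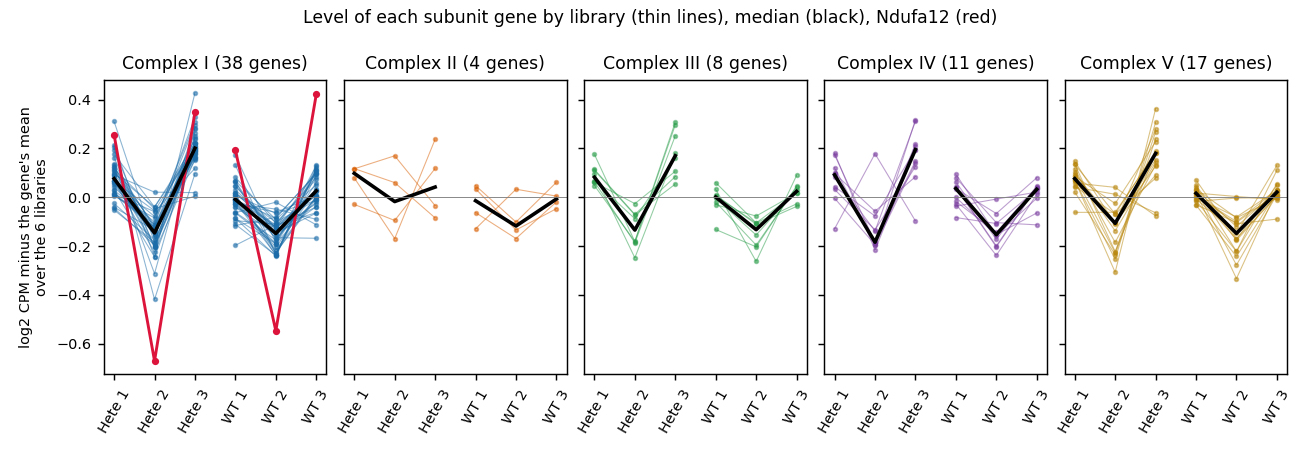
Log2 CPM of each subunit gene minus its mean over the 6 libraries, by complex, for the 78 tested genes with a mean of at least 5 CPM, with heterozygous livers left of wild-type livers, thin lines for genes, the median in black and Ndufa12 in red. Hete 2 and WT 2 dip and Hete 3 peaks in complexes I, III, IV and V, the smallest swing is in complex II, and Ndufa12 dips furthest.

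Other genes with short transcripts moved the same way in Hete 2, Hete 3 and WT 2. Among tested genes outside the group, those with transcripts under 600 bases had a median deviation from their own mean of -0.15 in Hete 2, 0.12 in Hete 3 and -0.082 in WT 2, and those of 4000 bases and over of 0.083, -0.069 and 0.031. The subunit genes are short, with a median length of 758 bases. Those under 600 bases, 26 genes, deviated by -0.18 in Hete 2, 0.21 in Hete 3 and -0.19 in WT 2, and the 5 from 2000 up to 4000 bases by -0.047, 0.0041 and -0.066. Hete 1 and WT 1 went otherwise. There, other genes under 600 bases deviated by -0.017 and 0.12, and subunit genes under 600 bases by 0.067 and 0.0087. Across the 77 members with a length and a mean log2 CPM over 3, the difference of Hete 3 minus Hete 2 was smaller for longer transcripts (Spearman's rho -0.41, across genes of the same 2 libraries, which are not independent). The summed mitochondrial ribosomal protein genes followed the same libraries, at 2512, 2317 and 2595 CPM in heterozygous livers, against 2408, 2212 and 2456 CPM in wild-type livers. The summed cytosolic ribosomal protein genes were at 13176, 12824 and 14399 CPM in heterozygous livers, against 14890, 12342 and 13836 CPM in wild-type livers. The part of transcript length in the members' swing was not tested.

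**Figure D4:**
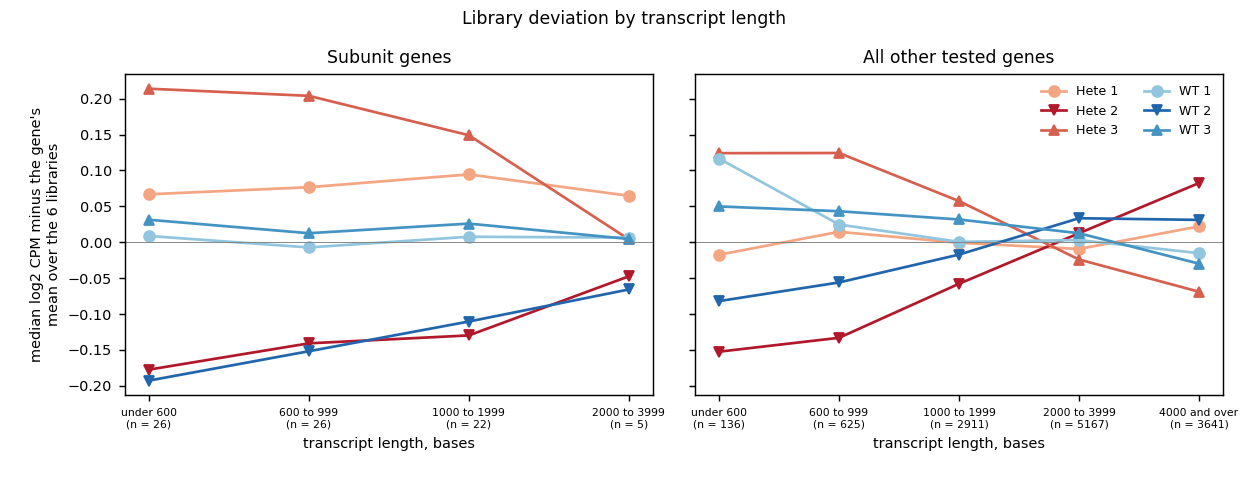
Median log2 CPM minus each gene's mean over the 6 libraries, by transcript length, for the subunit genes on the left and all other tested genes on the right, 1 line a library. Hete 3 is highest and Hete 2 and WT 2 are lowest among genes under 1000 bases on both sides, and on the right Hete 2 is highest and Hete 3 lowest at 4000 bases and over.

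Ndufa12, an accessory subunit of complex I, stood apart from the other members between libraries. It was at 53.5, 28.2 and 57.1 CPM in heterozygous livers, against 51.2, 30.7 and 60.03 CPM in wild-type livers. Both replicate 2 libraries were at least 1.5-fold below each of the other 4, and the genotypes overlapped fully (log2 fold change -0.032 ± 0.35, SE). Of the 9591 genes with a mean of at least 5 CPM, 3 showed this pattern, the others being Bcl6 and Gsta1, and 2, Kcnk5 and Usp2, showed the opposite one. Its 4 measured neighbours in the genome did not share it. Tmcc3 was at 12.8, 16.5 and 10.8 CPM in heterozygous livers, against 7.26, 11.8 and 11.2 CPM in wild-type livers, and Fgd6 at 22.2, 26.6 and 18.5 CPM in heterozygous livers, against 12.0, 17.2 and 15.4 CPM in wild-type livers, so both were highest in replicate 2 of each genotype. Nr2c1 lay between 13.2 and 14.4 CPM, and Vezt was at 21.7, 18.5 and 19.8 CPM in heterozygous livers, against 14.7, 19.4 and 19.6 CPM in wild-type livers. These genes were picked after their values were seen.

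Lists of genes that build or feed the chain had 1 gene past the threshold, described last. Of all tested genes, 0.559% passed as lower and 0.0236% as higher. At these shares a count of 0 in a list of this size says little about its genes. Assembly factors had 0 of 49 tested genes past the threshold and a median log2 fold change of 0.048. The assembly factor with the smallest p was Sdhaf1, needed for the iron-sulfur clusters of complex II, at 15.4, 16.2 and 17.9 CPM in heterozygous livers, against 9.88, 12.1 and 11.9 CPM in wild-type livers. Its groups did not overlap, and it did not pass after adjustment (log2 fold change 0.55 ± 0.14, SE, adjusted p = 0.117). Among the assembly factors 3 of 49 were separated with heterozygous higher, Sdhaf1 and Coa3 among them, beside 7.05% of all tested genes. Coa3, which helps assemble complex IV, had a log2 fold change of 0.28 ± 0.10 (adjusted p = 0.269). Coenzyme Q synthesis had 0 of 13 genes past the threshold (median 0.027), the TCA cycle 0 of 14 (median -0.0081), the mitochondrial ribosome 0 of 78 (median 0.048) and the cytosolic ribosome 0 of 97 (median -0.014). In the first 3 of these lists the smallest p-values belonged to Coq8b (log2 fold change -0.38 ± 0.17, adjusted p = 0.412) and Coq10a (0.24 ± 0.12), to the citrate synthase gene Cs (0.20 ± 0.13, adjusted p = 0.58) and Suclg1 (0.14 ± 0.11), and to the ribosomal protein genes Mrpl18 (0.39 ± 0.13, adjusted p = 0.231) and Mrps22 (0.26 ± 0.14). Regulators of mitochondrial biogenesis had 0 of 19 (median 0.12). Among these, Ppargc1a, a coactivator of the pathway, was at 5.36, 29.0 and 7.97 CPM in heterozygous livers, against 5.31, 6.69 and 6.90 CPM in wild-type livers, so a single library, Hete 2, was high and subunit genes were low in that library. Tfam, which maintains mitochondrial DNA, was at 34.9, 36.1 and 38.4 CPM in heterozygous livers, against 30.0, 31.8 and 34.3 CPM in wild-type livers (log2 fold change 0.19 ± 0.11, adjusted p = 0.521).

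That gene was Ucp2, an inner membrane carrier of the uncoupling protein family known from rat liver to be expressed mainly in Kupffer cells. It fell to 31.2, 33.7 and 48.0 CPM in heterozygous livers, against 82.0, 93.5 and 80.2 CPM in wild-type livers. The groups did not overlap, and the log2 fold change was -1.18 ± 0.17 (SE, adjusted p = 0.0336), between -1.39 and -1.05 under the 17 alternatives. Its call was lost in 10 of these, which include leaving out each library other than Hete 3, with adjusted p from 0.0521 to 0.183. It was the 1 gene of 12 carriers and electron donors outside the rule that passed, where 0.559% of all tested genes passed as lower. The median of that list was 0.052, and 2 of its genes were separated with heterozygous lower, beside 11.3% of all tested genes. The heart and muscle ADP/ATP carrier Slc25a4 had the next smallest p (log2 fold change -0.58 ± 0.21, adjusted p = 0.267). Macrophage markers were lower as well: 9 of 9 were below 0 (median -1.39), where 51% of all tested genes were above 0. Lyz2, which codes for lysozyme, and the lysosomal marker Cd68 passed the test, where 0.559% of all tested genes passed as lower. Lyz2 fell to 73.4, 77.2 and 95.1 CPM in heterozygous livers, against 189, 349 and 248 CPM in wild-type livers (log2 fold change -1.68 ± 0.22, adjusted p = 0.0336), and its call was lost in 7 alternatives, among them those without Hete 1, Hete 2 or WT 3 (adjusted p = 0.189, 0.178 and 0.0569). Cd68 fell to 15.1, 13.4 and 18.9 CPM in heterozygous livers, against 27.7, 37.3 and 32.3 CPM in wild-type livers (log2 fold change -1.04 ± 0.16, adjusted p = 0.0445), and its call was lost in 11, which include leaving out each library other than Hete 3, with adjusted p up to 0.218. Their 9 genes summed to 251, 280 and 258 CPM in heterozygous livers, against 559, 1022 and 587 CPM in wild-type livers. In bulk liver, fewer cells of a type and less RNA per cell cannot be told apart. Acute phase genes had 0 of 24 past the threshold, though 24 of 24 were below 0 (median -0.68) and 6 were lower at an unadjusted p under 0.05. Of all tested genes, 51% were above 0 and 9% were lower at that level. The acute phase genes summed to 31038, 47330 and 30872 CPM in heterozygous livers, against 85889, 35885 and 45985 CPM in wild-type livers, so WT 1 stood apart. Hepatocyte markers had 0 of 10 past the threshold (median 0.0037). Pericyte and smooth muscle markers had 0 of 8 tested (median 0.022). The part of these cell types in the levels of Ucp2 and of the subunit genes was not tested.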

How the data were processed

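Per the labels' protocols, 500 ng of total liver RNA a sample was made into libraries with a stranded mRNA kit. The submitters' processing notes name the build GRCm39 and the tools HTSeq 0.9.1, HISAT2 2.2.1.0 and Trimmomatic 0.36. The sources used here name neither the annotation nor the strand setting of the counter, so genes that overlap or share sequence are uncertain. The authors deposited raw counts per gene symbol, 1 column a sample. Genes were kept by filterByExpr and fitted by group with edgeR 4.0.16 (TMM, robust quasi-likelihood, Benjamini-Hochberg threshold 0.05) in R 4.3.3. Members and gene lists were chosen with earlier results of these data known, so lists carry counts and medians only. Genes named were, per complex, the 4 smallest p and the highest CPM, the isoform pairs, untested members, and per related list of mitochondrial genes those past the threshold and the 2 smallest p. Others are named for their role, or were chosen after their values were seen. DESeq2 1.42.0 and limma 3.58.1 served as alternatives. Libraries were not paired by replicate number in the main fit. Over all tested genes, deviations of libraries with the same number correlated at -0.21, -0.31 and 0.19 across genotypes. Among the members, 74 of 83 were lowest in Hete 2 or WT 2. No 2 libraries agreed within sampling noise. The test was first run on simulated data with each gene drawn separately, so the members' shared swing was not in them. 1 member is counted in the totals but is not reported here by name.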

Additional observations from a re-analysis of the deposited data

How the results depend on the processing

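In each of the 19 alternatives run, 0 members passed the adjusted threshold, with the smallest member adjusted p between 0.205 and 0.849, while calls over all genes ranged from 0 to 534. With no filter on low counts 1 member was lower at an unadjusted p under 0.05, Cox6b2 (log2 fold change -1.66), beside 7.42% of all genes. Without WT 1 and Hete 2 together 8 of 83 members were higher at that level, beside 4.23% of all genes, and leaving out 1 library gave between 0 and 3, beside 2.37% to 5.24% of all genes. The median of all members was -0.034 without Hete 3 and WT 2, 0.12 without both replicate 2 libraries (both added after seeing the data) and 0.22 without WT 1 and Hete 2, and it lay between 0.017 and 0.19 with 1 library left out. With the replicate number as a block it was 0.083, and 0 genes in all were then called, so the calls of Ucp2, Lyz2 and Cd68 were lost (adjusted p = 0.177 each). Of 610 values for the 36 tested members named, 572 kept their sign and side of the threshold. With the acute phase covariate the log2 fold change of Cox6a1 was -0.0052, of Sdha -0.0033, of Sdhc 0.00997, of Cox7a2l 0.076, of Atp5a1 0.0046, of Ndufb4b -0.0019 and of Cebpb 0.33. Sdhc was at 0.0044 with RLE factors, 0.0024 with totals alone, 0.017 with no filter, 0.0044 with DESeq2 and 0.077 without WT 1 and Hete 2, where Ppargc1a was at -0.013, Ndufa12 at 0.30 and Atp5a1 at 0.0058. Atp5a1 was at 0.0014 with RLE factors and with DESeq2 and at 0.014 with no filter. With 1 library left out, values ran from -0.043 to 0.095 for Atp5g2, -0.39 to 0.53 for Cox7a1, -0.021 to 0.15 for Cox8a, -0.065 to 0.043 for Sdhc, -0.0058 to 0.24 for Uqcrq, -0.26 to 0.23 for Ndufa12, -0.13 to 0.043 for Cox7a2l, -0.015 to 0.025 for Atp5a1, -0.049 to 0.57 for Ndufb4b, -0.14 to 0.20 for Ndufab1-ps and -0.70 to 0.016 for Cebpb. The causes were not tested. The 5 tested members with the fewest counts and Ndufa12 had the widest intervals.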
